A study of Mus musculus with 18 samples.

Results

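Esco2 mutant and control forelimb buds of mouse embryos were compared by RNA sequencing at E10.5 (days of embryonic development). All of these embryos were homozygous for a floxed Esco2 allele. The 3 control libraries came from Esco2fl/fl buds without Cre. The 3 mutant libraries came from Esco2fl/fl;Prrx1-CreTg/0 buds, in which the Prrx1-Cre transgene recombines the floxed allele in limb mesenchyme. These 6 of the 18 libraries in the series were chosen by genotype and stage in their titles. The other 12 come from E9.5 and E11.5, with 3 of each genotype per stage. They served for comparison and for the estimate of spread. Ectoderm, vessels, blood cells and immigrating muscle precursors do not derive from cells in which Prrx1-Cre acts, and a mutant bud still holds them. The controls had no Cre, so an effect of Cre and an effect of Esco2 loss cannot be told apart. The labels speak of individual limb buds and do not say whether libraries came from separate embryos or litters. P-values therefore measure the spread between these libraries, which may be technical.

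ESCO2 acetylates cohesin during DNA replication, and this acetylation lets the ring hold sister chromatids together until they separate. Dividing cells that lack it mis-segregate chromosomes, and p53 answers such damage by switching on genes for arrest and death. The E10.5 forelimb bud is a pouch of dividing mesenchyme under a thin ectoderm. The apical ectodermal ridge at its tip secretes FGFs, posterior mesenchyme secretes Sonic hedgehog, and the core starts to condense into cartilage under Sox9. In whole buds a transcript can be low because fewer cells of a type are present or because each cell holds less of it, and these counts cannot tell the cases apart.

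Total counts ran from 44402251 to 49489072 over the 6 libraries. Forelimb identity matched the labels: Tbx5, the forelimb gene, was at 50.8 CPM (counts scaled to library size by TMM) or more in each library, against 4.71 to 11.48 CPM for the hindlimb gene Tbx4 and at most 1.52 CPM for Pitx1. Mutant replicate 3 stood apart. Haemoglobin genes took 1.96% of its counts, against 0.634% and 0.989% in the other mutants and 0.294% to 0.600% in the controls. Its library code also begins with another number (44) than those of the other mutants and of control replicates 1 and 2 (41), while that of control replicate 3 begins with 39. In mutant replicate 3, 44 genes were over 4 CPM and more than 4-fold above each of the other 5 libraries, against 0 to 3 such genes in any other library. They summed to 1800 CPM. Prap1, a secreted protein gene of uterine and gut epithelium, was at 541 CPM in it and at 2.36 CPM or less elsewhere. Csf1, a macrophage growth factor, was at 212 CPM against 5.89 to 9.11 CPM, the water channel gene Aqp8 at 128 CPM against at most 0.533 CPM, and complement C3 at 98.2 CPM against at most 0.431 CPM. The oestrogen receptor gene Esr1 reached 6.62 CPM and Xist, the RNA of the inactive X chromosome, 8.67 CPM, against at most 0.355 and 0.638 CPM. These names were chosen after their values were seen. Of the 44 genes, 22 were called higher in mutants, and 2 of these, Abcb1b and Lrg1, were still called higher without this library.

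**Figure D1:**
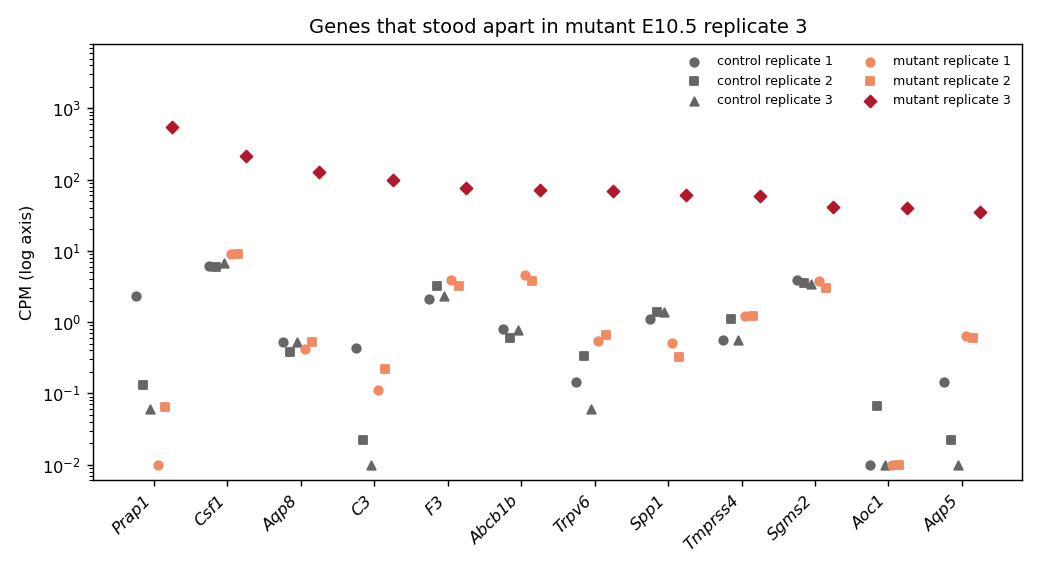
CPM (log axis, values under 0.01 drawn at 0.01) of the 12 highest genes among the 44 that stood apart in mutant E10.5 replicate 3, one point per library. The point of mutant replicate 3 lies above the other 5 libraries for each gene, from 541 CPM for Prap1 downward.

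Across all genes, 2802 of 20118 tested (13.9%) differed between E10.5 mutants and controls. Levels rose for 1469 genes (7.3% of those tested) and fell for 1333 (6.63%), by edgeR's quasi-likelihood test at a Benjamini-Hochberg adjusted p of 0.05. Of these, 807 rose and 444 fell at least 2-fold. Log2 changes are given with their standard error (± SE) and with adjusted p-values from this test, n = 3 against 3. "Rose" and "fell" are used for genes past that threshold. The mutant and control libraries did not overlap for 2754 of the 2802 called genes. Over all genes, the 3 mutants lay above the 3 controls for 23% and below them for 23.1%. The median log2 change over all genes was 0.02. Protein-coding genes were called in 17.2% of 15239 cases and lincRNA genes in 7.06% of 680. Mutant changes ran with exon length across 12706 genes (Spearman -0.29), longer genes being lower. Genes are not independent replicates. With the length trend removed, 1903 genes were higher and 1480 lower.

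The number of calls followed the number and choice of libraries. Rises numbered 751, 936 and 845 without control replicates 1, 2 and 3 in turn and 747 without mutant replicate 3, and falls numbered 836, 818, 854 and 726. Without mutant replicate 1 there were 1281 rises and 969 falls, and without mutant replicate 2 there were 1008 and 843. In all 6 of these fits 593 rises (40.4%) and 612 falls (45.9%) were called again. Leaving out control E9.5 replicate 1, a library of another stage that enters the shared estimate of spread, gave 2596 and 2737, and without it and mutant replicate 3 together there were 1867 and 1978. With only the libraries whose codes begin with 41, 2 mutants against 2 controls, 433 genes rose and 443 fell. Without mutant replicate 3, 2800 of the 2802 called genes kept the sign of their change. Unless a sentence says otherwise, a rise or fall named below was called again in each of the 6 fits without 1 E10.5 library.

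**Figure D2:**
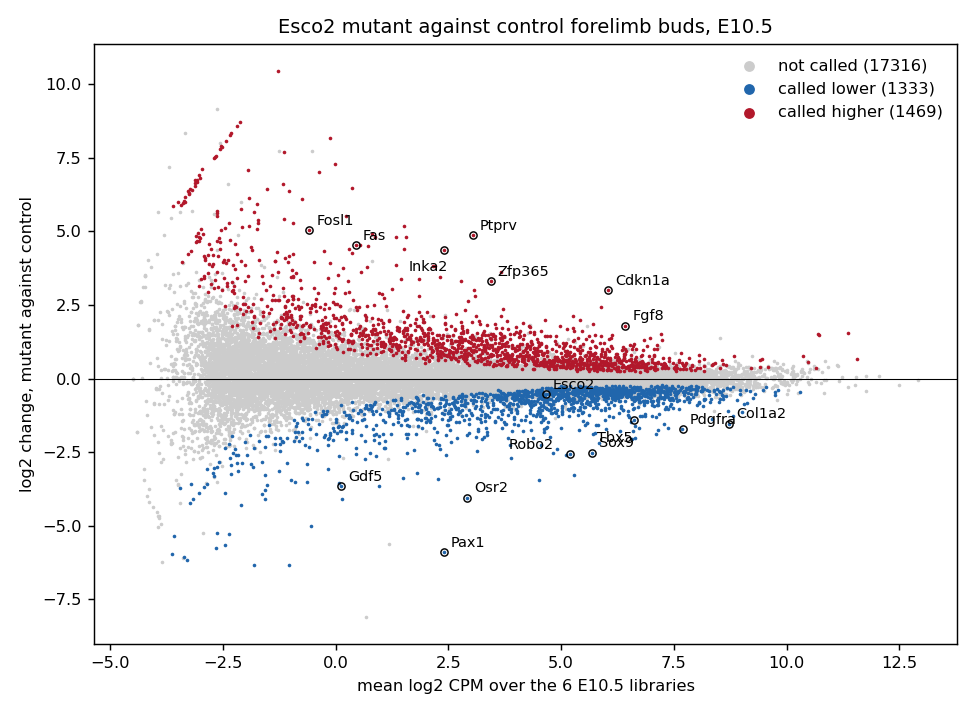
Log2 change of mutants against controls at E10.5 (y) against mean log2 CPM over the 6 libraries (x), one point per tested gene, with genes called higher in red and genes called lower in blue. Named genes are labelled; Cdkn1a stands at 3.00 and Sox9 at -2.52.

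Esco2 transcript itself was lower by less than a factor of 2. It was at 29.4, 33.6 and 28.1 CPM in controls and 21.9, 18.9 and 22.3 CPM in mutants (log2 change -0.53 ± 0.14, adjusted p = 0.0200), and that call was made in 3 of the 6 fits without 1 library. All exons are counted and part of each bud keeps Esco2, so the value checks the deletion weakly. In the list of cohesin and its regulators 4 of 20 genes fell, Esco2 among them, and 16 did not pass (median log2 change -0.34, against 0.02 over all genes). Each of the 20 had a negative change. Hdac8, the cohesin deacetylase, fell by 0.66 ± 0.14 on the log2 scale (adjusted p = 0.00518). Rad21, the cleavable subunit of the ring, was at 355, 374 and 353 CPM in controls and 270.1, 259 and 270.2 CPM in mutants (log2 change -0.44 ± 0.11, adjusted p = 0.0114), called in 4 of 6 fits. Smc1a was the fourth, called in none of the 6, and the count of falls was 2 of 20 without control replicate 1 and 1 without control replicate 2 or mutant replicate 2.

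p53 target genes were higher in the mutants, and most of the list moved. Of 50 targets 37 rose (74%, where 7.3% of all genes did) and 1 fell, with a median log2 change of 1.00. Leaving out each library in turn left 34 to 37 rises, and with the libraries of code 41 alone 30 remained called. The fall was that of the repair gene Xpc and was lost in each of the 6 fits. Cdkn1a, which encodes the cell cycle inhibitor p21, was at 23.5, 24.9 and 20.9 CPM in controls and 171, 186 and 199 CPM in mutants (log2 change 3.00 ± 0.14, adjusted p = 1.67e-09). Inka2, a gene for an inhibitor of PAK4 kinase, was at 0.984, 1.44 and 1.04 CPM in controls and 23.3, 22.9 and 25.8 CPM in mutants (log2 change 4.38 ± 0.22, adjusted p = 2.82e-09). For both genes the lowest mutant lay far above the highest control. Trp53, which encodes p53, was at 257, 249 and 264 CPM in controls and 304, 288 and 284 CPM in mutants (log2 change 0.19 ± 0.10, adjusted p = 0.214) and was not called.

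Among the other targets the phosphatase gene Ptprv went from 0.964 to 1.97 CPM in the controls to 37.0 to 60.9 CPM in the mutants (4.88 ± 0.32, adjusted p = 1.06e-07). Fas, the death receptor gene, was at 0.164, 0.332 and 0.299 CPM in controls and 6.02, 5.08 and 7.42 CPM in mutants (log2 change 4.53 ± 0.38, adjusted p = 8.37e-07). Mdm2, which encodes the ligase that marks p53 for breakdown, was at 66.9, 62.7 and 68.2 CPM in controls and 147, 138 and 159 CPM in mutants (log2 change 1.16 ± 0.09, adjusted p = 2.97e-07). The stress gene Sesn2 rose by 1.99 ± 0.14, the mTOR inhibitor gene Ddit4l by 3.01 ± 0.23, and the receptor genes Eda2r by 3.31 ± 0.32 and Tnfrsf10b by 1.24 ± 0.13 (largest adjusted p = 1.03e-05). The cytokine gene Lif was at 0.143, 0.465 and 0.179 CPM in controls and 2.57, 2.62 and 3.24 CPM in mutants (log2 change 3.42 ± 0.45, adjusted p = 7.89e-05). Gdf15, which encodes a secreted stress signal, was at 0.0820, 0 and 0 CPM in the controls and at 0.835, 0.716 and 3.08 CPM in the mutants (adjusted p = 0.00139).

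Some of the largest rises lay outside the target list. The neighbouring genes Ltb4r1 and Ltb4r2, which encode leukotriene receptors, were at 0.390, 0.576 and 0.418 CPM in controls and 11.9, 12.2 and 14.6 CPM in mutants and at 0.369, 0.621 and 0.638 CPM in controls and 12.97, 14.7 and 18.6 CPM in mutants, respectively (4.80 ± 0.39 and 4.82 ± 0.34). Cgref1 was at 0.574, 0.554 and 0.797 CPM in controls and 9.32, 9.05 and 9.90 CPM in mutants (log2 change 3.87 ± 0.34, adjusted p = 1.22e-06). Atg9b, an autophagy gene, was at 0.902, 1.26 and 1.59 CPM in controls and 13.3, 13.4 and 26.6 CPM in mutants (log2 change 3.82 ± 0.34, adjusted p = 1.55e-06), highest in mutant replicate 3 and still at 3.41 without it. Zfp365, whose product protects stalled replication forks, was at 3.26, 3.86 and 3.19 CPM in controls and 34.6, 28.3 and 39.02 CPM in mutants (log2 change 3.31 ± 0.23, adjusted p = 1.71e-07). Tap1, the peptide transporter of antigen presentation, was at 3.38, 3.61 and 2.69 CPM in controls and 22.2, 19.1 and 27.01 CPM in mutants (log2 change 2.82 ± 0.24, adjusted p = 7.50e-07). No mutant overlapped a control in these 6 genes, as in 2754 of the 2802 called genes, so this adds no support.

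The known p53 response element was searched for in promoters. The element is a pair of adjoining 10-base motifs. The C and the G of each motif's core had to match, and up to 2 mismatches were allowed over the other bases, those between this C and G included. The 250 bases before a RefSeq start (GRCm38.p6) held it for 51 of 12680 tested genes with a promoter in the table (0.402%). Either strand is the same by its symmetry. A gene with several starts was counted if any of them had the element, and Cdkn1a and Cd151 had 2 starts each. The element was found for 16 of 1079 genes that rose (1.48%), 5 of 991 that fell (0.505%), 30 of 10610 not called (0.283%) and 5 of 40 listed targets (12.5%). A match is a description of these letters and not a bound site, and a target without it may carry the element elsewhere. 5 such windows of genes that rose are shown because they hold the element, each on its gene's strand, 5′ to 3′, with the element in capitals. They lie at chr17:29090898-29090977 (Cdkn1a, plus strand), chr10:67912676-67912755 (Zfp365, minus), chr11:40755432-40755511 (Ccng1, minus), chr16:38458792-38458871 (Cd80, plus) and chr7:141467272-141467351 (Cd151, plus) of mm10.
Cdkn1a: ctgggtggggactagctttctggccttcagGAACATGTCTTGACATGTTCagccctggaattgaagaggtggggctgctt
Zfp365: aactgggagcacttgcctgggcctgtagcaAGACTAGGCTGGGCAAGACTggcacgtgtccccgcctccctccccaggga
Ccng1: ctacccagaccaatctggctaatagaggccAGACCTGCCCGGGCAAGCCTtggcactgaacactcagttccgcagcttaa
Cd80: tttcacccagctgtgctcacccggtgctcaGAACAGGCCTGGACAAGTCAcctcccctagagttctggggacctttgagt
Cd151: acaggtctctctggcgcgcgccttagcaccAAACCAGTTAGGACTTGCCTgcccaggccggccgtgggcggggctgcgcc

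Cdkn1a and Ccng1 had 1 mismatch to the element and the others had 2. Starts were checked for 8 promoters of genes that rose, these among them. For 5 of the 8, not necessarily those shown, the first 30 transcribed bases lay in a GENCODE transcript start. Ccng1, which encodes cyclin G1, was at 25.9, 26.5 and 23.8 CPM in controls and 135, 114 and 161 CPM in mutants (log2 change 2.43 ± 0.18, adjusted p = 2.32e-07). Cd80, a co-stimulatory surface protein, changed by 4.29 ± 0.44 (adjusted p = 6.55e-06), and the tetraspanin gene Cd151 by 0.68 ± 0.10 (adjusted p = 0.000241).

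Death genes did not move as a block. Of 8 BH3-only genes, whose products trigger mitochondrial death, 3 rose and 1 fell (Bbc3, Hrk and Bid up, Bmf down). Bbc3, which encodes Puma, was at 8.40, 8.89 and 11.2 CPM in controls and 16.3, 17.7 and 15.9 CPM in mutants (log2 change 0.81 ± 0.19, adjusted p = 0.00961), called in 5 of 6 fits. Hrk was called in 2 and Bid in none. None of the 3 remained without control replicate 1 and 1 without control replicate 2, control replicate 3 or mutant replicate 3. Bmf was at 62.4, 78.98 and 59.1 CPM in controls and 24.01, 34.7 and 32.1 CPM in mutants (log2 change -1.14 ± 0.18, adjusted p = 0.000423). Pmaip1, which encodes Noxa, was at 42.4, 51.4 and 64.2 CPM in controls and 35.4, 38.4 and 41.4 CPM in mutants (log2 change -0.45 ± 0.22, adjusted p = 0.182), lower in each mutant than in each control without passing. Among 7 measured BCL2 effectors and protectors only Bax rose (0.83 ± 0.19, adjusted p = 0.00851). Of 14 death receptors, ligands and adaptors 7 rose and 1 fell, and leaving out each library in turn left 5 or 6 rises. Tnfrsf1a, a TNF receptor gene, was at 46.2, 45.8 and 52.8 CPM in controls and 70.2, 69.9 and 73.6 CPM in mutants (log2 change 0.56 ± 0.10, adjusted p = 0.00128). Eda fell (-1.03 ± 0.19, adjusted p = 0.00148) while the receptor genes Edar, of the ectoderm, and Eda2r rose. In the list of 18 caspases and apoptosome genes 2 rose (11.1%) and 1 fell (5.56%), where 7.3% and 6.63% of all genes did. The rises were those of Pidd1 (0.99 ± 0.11, adjusted p = 2.39e-05) and Htra2. The call of Htra2 was made in 3 of 6 fits.

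Some genes of chromosome segregation were lower, by small amounts. Among 37 genes of mitosis and the kinetochore 9 fell (24.3%, where 6.63% of all genes did; median -0.26) and 6 had a positive change. Only 4 fell without control replicate 1, 2 or 3, mutant replicate 2 or mutant replicate 3. Top2a, the topoisomerase that untangles chromosomes, was at 771, 814 and 707 CPM in controls and 480.4, 472 and 515 CPM in mutants (log2 change -0.64 ± 0.14, adjusted p = 0.00413). Nusap1 fell by 0.47 ± 0.09 and the kinetochore gene Ndc80 by 0.41 ± 0.08 on the log2 scale (adjusted p = 0.00175 and 0.00304). Of 40 DNA replication genes 2 fell (5%, where 6.63% of all genes did). Rrm1 was called in 2 and Lig1 in none of the 6 fits without 1 library. Of 40 damage response and repair genes 1 rose and 1 fell (2.5% each way, where 7.3% and 6.63% of all genes did). Chek2 rose (called in 4 of 6 fits) and Xrcc5, a subunit of the Ku end-binding dimer, fell (-0.46 ± 0.08, adjusted p = 0.00147). Among CDK inhibitors Cdkn1c, which encodes p57, moved against Cdkn1a: it was at 532, 692 and 606 CPM in controls and 247, 344 and 265 CPM in mutants (log2 change -1.10 ± 0.19, adjusted p = 0.000941). The retinoblastoma gene Rb1 (0.76 ± 0.17) and cyclin D3 gene Ccnd3 (0.50 ± 0.11) rose (adjusted p = 0.00761 and 0.00492).

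**Figure D3:**
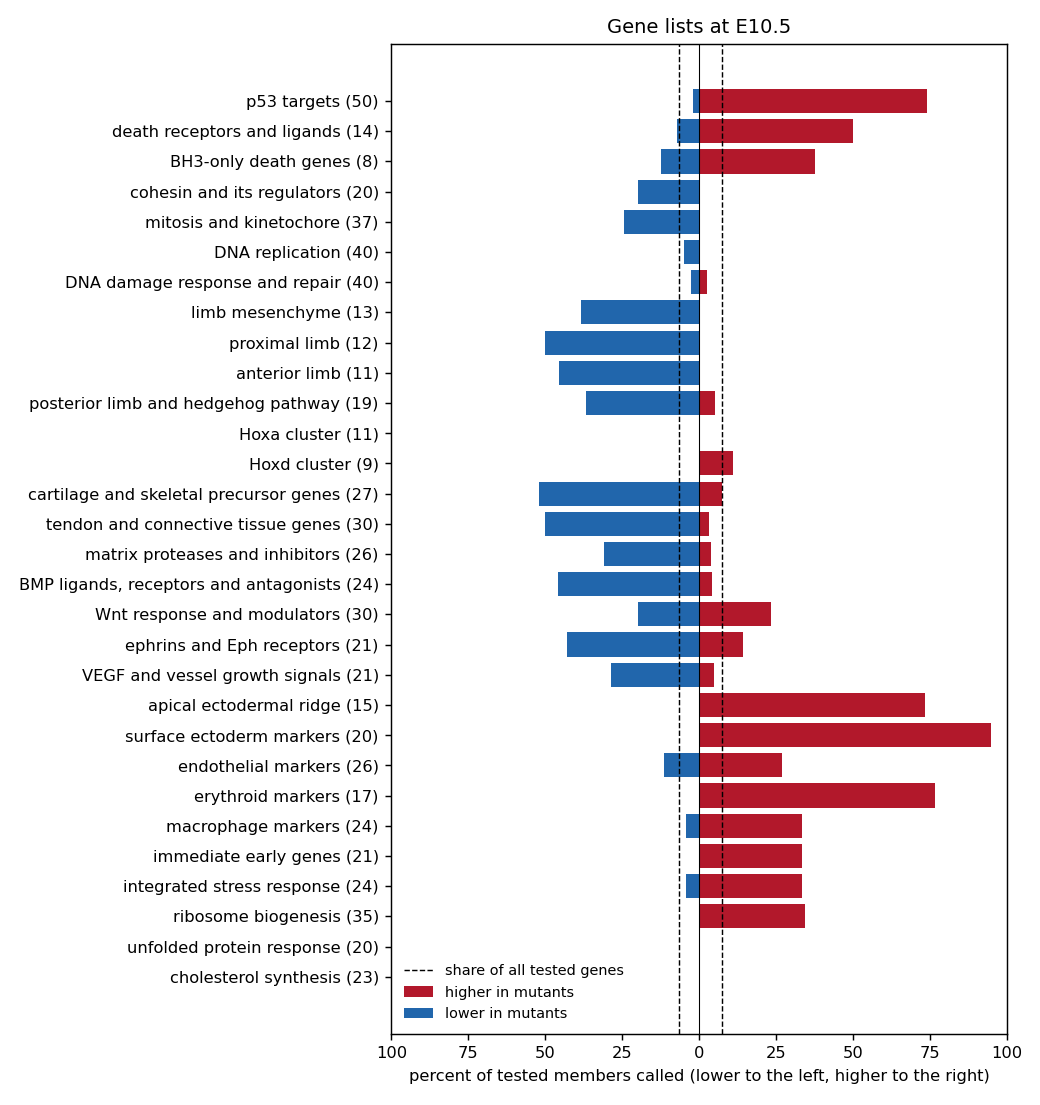
Percent of the tested members of 30 gene lists that were higher (red, to the right) or lower (blue, to the left) in E10.5 mutants, with the number tested in brackets. Dashed lines give the share over all 20118 tested genes, 7.3% higher and 6.63% lower; p53 targets reach 74% higher and cartilage genes 51.9% lower, and 0 of the erythroid markers were called without mutant replicate 3.

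Several factors that define the limb mesenchyme fell. In that list 5 of 13 genes fell (38.5%, where 6.63% of all genes fell) and 8 did not pass. The median log2 change was -0.45, and 2 of the 13 had a positive change. In each fit without 1 library 5 fell. The values below are only those of the 5 genes that fell. Tbx5, which starts the forelimb, was at 148, 165 and 166 CPM in controls and 63.01, 50.8 and 65.5 CPM in mutants (log2 change -1.42 ± 0.14, adjusted p = 3.83e-06). Prrx1, the mesenchymal factor whose enhancer drives the Cre, was at 533, 551 and 528 CPM in controls and 283, 181 and 152 CPM in mutants (log2 change -1.39 ± 0.16, adjusted p = 2.51e-05). Pdgfra, a growth factor receptor of mesenchyme, was at 380.1, 406 and 344 CPM in controls and 128, 119 and 96.1 CPM in mutants (log2 change -1.72 ± 0.20, adjusted p = 3.18e-05). Zfhx4 and Zfp503, which encode zinc finger factors, fell by 1.76 ± 0.28 and 0.64 ± 0.11 on the log2 scale (adjusted p = 0.000513 and 0.000849). No mutant reached the level of a control for any of the 5, which holds for nearly all called genes.

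Several patterning factors of the upper and anterior limb fell. Pax1, a factor of the shoulder region, was at 47.9, 43.3 and 39.9 CPM in controls and 1.47, 0.347 and 0.390 CPM in mutants (log2 change -5.89 ± 1.31, adjusted p = 0.00893), and that call was lost without mutant replicate 3 (adjusted p = 0.0536). Tbx18 was at 69.9, 106 and 83.5 CPM in controls and 16.5, 15.7 and 10.8 CPM in mutants (log2 change -2.60 ± 0.21, adjusted p = 5.97e-07), and Shox2, which the upper arm bone needs, at 222, 302 and 276 CPM in controls and 89.2, 67.3 and 61.4 CPM in mutants (log2 change -1.88 ± 0.19, adjusted p = 6.55e-06). The homeobox gene Gsc was at 42.2, 36.2 and 38.3 CPM in controls and 5.34, 8.74 and 3.83 CPM in mutants (log2 change -2.70 ± 0.42, adjusted p = 0.000421). Alx4, an anterior homeobox gene, was at 103, 100 and 103 CPM in controls and 32.6, 28.03 and 24.8 CPM in mutants (log2 change -1.84 ± 0.26, adjusted p = 0.000175). Of 12 proximal genes 6 fell and 6 did not pass, and of 11 anterior genes 5 fell and 6 did not pass. Falls numbered 3 without control replicate 1 or mutant replicate 3 in the proximal list, and 3 without control replicate 2, mutant replicate 1 or mutant replicate 3 in the anterior list. In the dorsal and ventral patterning list 2 of 7 genes rose and 2 fell (28.6% each way, median 0.05). Over all genes 7.3% rose and 6.63% fell. Without 1 library 1 or 2 rose and 1 or 2 fell. The LIM cofactor gene Ldb2 fell (-1.28 ± 0.15, adjusted p = 2.25e-05) and En1, of the ventral ectoderm, rose (1.35 ± 0.25, adjusted p = 0.00159).

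Hox genes give cells their position along the limb and trunk, and calls among them were mostly in the Hoxc cluster. In the Hoxa and Hoxb clusters 0 of 11 and 0 of 9 genes were called by edgeR, limma-voom or DESeq2, and 1 in each had an unadjusted p under 0.05 in edgeR. In the Hoxd cluster 1 of 9 genes rose, Hoxd1, called in 3 of 6 fits. In the Hoxc cluster 3 of 9 rose (33.3%, where 7.3% of all genes did), with 2 or 3 rises in each fit without 1 library and 0 with the libraries of code 41 alone. Hoxc8 was at 9.66, 9.84 and 8.43 CPM in controls and 15.7, 18.3 and 25.6 CPM in mutants (log2 change 1.10 ± 0.21, adjusted p = 0.00182) and Hoxc9 rose by 1.37 ± 0.28 (adjusted p = 0.00308). The third Hoxc call, Hoxc13, was made in 3 of 6 fits. Of 15 trunk and somite markers, which tissue beside the bud could add, 3 fell (20%, where 6.63% of all genes did) and 1 rose. The falls were those of Meox2 (-0.98 ± 0.18, adjusted p = 0.00135), Pax1 and Osr1, and the rise, that of Pax2, was called in 1 of 6 fits. Most of the list lay the other way: 12 of the 15 had a positive change, and the median log2 change was 0.51. The list's summed level was lower in mutants than in controls, so this sum does not describe the typical member. Lin28a, a timing gene of young embryonic cells, was at 17.9 to 28.4 CPM in controls and at 65.3 to 71.03 CPM in mutants (log2 change 1.61 ± 0.30, adjusted p = 0.00198), and Ebf2 and Ebf3, factors of connective tissue, fell (-1.26 ± 0.20 and -0.95 ± 0.17, adjusted p = 0.000501 and 0.00137).

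Many cartilage and connective tissue genes fell. In the cartilage list 14 of 27 genes fell (51.9%) and 2 rose, with a median of -0.64 and 12 or 13 falls in each fit without 1 library. The list was split, as 12 of the 27 had a positive change. Sox9, the master factor of cartilage, was at 104.8, 139 and 128 CPM in controls and 24.5, 22.3 and 18.03 CPM in mutants (log2 change -2.52 ± 0.19, adjusted p = 2.97e-07), and its partner Sox5 at 33.7, 40.00 and 37.2 CPM in controls and 11.7, 10.6 and 10.6 CPM in mutants (log2 change -1.76 ± 0.14, adjusted p = 5.97e-07). The joint growth factor gene Gdf5 was at 2.79, 4.50 and 3.65 CPM in controls and 0.374, 0.239 and 0.246 CPM in mutants (log2 change -3.66 ± 0.47, adjusted p = 7.18e-05). The cartilage collagen genes Col9a1 and Col9a2 fell by 3.29 ± 0.30 and 3.19 ± 0.39 on the log2 scale (adjusted p = 2.23e-06 and 4.51e-05). Col2a1, the main cartilage collagen gene, was at 383, 481 and 424 CPM in controls and 254, 273 and 309 CPM in mutants and did not pass (log2 change -0.62 ± 0.22, adjusted p = 0.0683). The matrilin genes Matn1 and Matn4 ran the other way. Matn1 was at 0.0410, 0.177 and 0 CPM in controls and 2.95, 2.28 and 3.38 CPM in mutants (log2 change 5.30 ± 0.82, adjusted p = 0.000392), and Matn4 rose as well (2.42 ± 0.59, adjusted p = 0.0113), called in 3 of 6 fits.

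In the tendon and connective tissue list 15 of 30 genes fell (50%) and 1 rose (median -0.74; 10 to 12 falls in each fit without 1 library). Osr2, a factor of connective tissue and joints, was at 22.5, 33.7 and 37.6 CPM in controls and 1.72, 2.58 and 1.35 CPM in mutants (log2 change -4.05 ± 0.37, adjusted p = 2.26e-06). Osr1 was at 44.5, 48.8 and 43.5 CPM in controls and 16.6, 14.5 and 12.1 CPM in mutants (log2 change -1.66 ± 0.21, adjusted p = 5.16e-05). The fibrillar collagen gene Col1a2 was at 661, 782 and 731 CPM in controls and 257, 274 and 218 CPM in mutants (log2 change -1.54 ± 0.21, adjusted p = 0.000116), and Col3a1 at 759.6, 771 and 751 CPM in controls and 387, 369 and 289.5 CPM in mutants (log2 change -1.12 ± 0.17, adjusted p = 0.000407). The elastin gene Eln (-1.31 ± 0.14) and the tendon factor gene Scx (-1.70 ± 0.33) fell as well (adjusted p = 1.64e-05 and 0.00253). The rise, that of Egr1, was called in none of the 6 fits.

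Matrix remodelling genes followed. Of 26 matrix proteases and inhibitors 8 fell (30.8%) and 1 rose, with 6 or 7 falls in each fit without 1 library. Adamts15 was at 16.9, 23.9 and 18.04 CPM in controls and 6.24, 4.14 and 3.75 CPM in mutants (log2 change -2.06 ± 0.29, adjusted p = 0.000154), and Mmp11 fell by 0.99 ± 0.16 on the log2 scale (adjusted p = 0.000464). Of 24 basement membrane genes 2 rose (8.33%) and 3 fell (12.5%), where 7.3% and 6.63% of all genes did. Of the 24, 16 had a positive change (median 0.25). Rises numbered 0 without control replicate 1 or 3 or mutant replicate 2 or 3, and falls 2 or 3 in each fit. Lama2, a laminin chain of mesenchyme and muscle, was at 11.2, 15.96 and 11.9 CPM in controls and 3.45, 3.45 and 2.83 CPM in mutants (log2 change -2.00 ± 0.25, adjusted p = 4.80e-05). Large falls outside the lists included the matrix genes Sned1, at 75.8, 63.5 and 90.1 CPM in controls and 8.53, 7.79 and 4.96 CPM in mutants (log2 change -3.43 ± 0.33, adjusted p = 4.00e-06), and Smoc1, at 66.5, 68.5 and 70.9 CPM in controls and 16.2, 11.52 and 8.39 CPM in mutants (log2 change -2.51 ± 0.24, adjusted p = 2.76e-06). Capn6, an abundant calpain gene, was at 685, 712 and 678 CPM in controls and 345, 259.7 and 265 CPM in mutants (log2 change -1.25 ± 0.14, adjusted p = 1.56e-05).

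Several receptors and modulators of limb signals fell. Shh was at 18.1, 19.9 and 15.6 CPM in controls and 12.8, 8.94 and 10.9 CPM in mutants, lower in each mutant than in each control, and with a wide error (log2 change -0.72 ± 0.76, adjusted p = 0.583). That error draws on a spread estimated over all 18 libraries. Within E10.5 the SD was 2.17 CPM in controls and 1.95 CPM in mutants. The Shh coreceptor genes Cdon, at 164, 153 and 152 CPM in controls and 60.8, 59.6 and 48.6 CPM in mutants (log2 change -1.47 ± 0.19, adjusted p = 6.70e-05), and Boc (-0.82 ± 0.19, adjusted p = 0.00720) fell. Gli2, a factor that relays the signal, fell by 0.77 ± 0.18 on the log2 scale (called in 5 of 6 fits). In the posterior and hedgehog list 7 of 19 genes fell and 1 rose, with 4 falls without the first or the third control and 2 without mutant replicate 3. For FGFs, Fgfr1 was at 334, 377 and 383 CPM in controls and 243, 227 and 207 CPM in mutants (log2 change -0.69 ± 0.09, adjusted p = 0.000129), the ligand gene Fgf18 fell by 2.10 ± 0.33 and Fgfrl1, a receptor without a kinase, by 0.51 ± 0.11 on the log2 scale, and Fgf1 rose (1.42 ± 0.29; largest adjusted p of these = 0.00449). In the distal limb and FGF response list 4 of 18 genes rose (22.2%) and 2 fell. Rises numbered 2 without any 1 of the 3 controls or mutant replicate 1, and falls 2 in each fit without 1 library. Etv4 (1.01 ± 0.14) and Spry1 (0.53 ± 0.12) rose (adjusted p = 0.000180 and 0.00809), and the falls were those of the LIM homeobox gene Lhx9 (-0.89 ± 0.20, adjusted p = 0.00691) and of Cyp26b1.

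Of 24 BMP ligands, receptors and antagonists 11 fell (45.8%) and 1 rose, and 6 or 7 fell without any 1 of control replicates 1, 2 and 3 or mutant replicates 1 and 2, and 4 without mutant replicate 3. Bmp3, a ligand that opposes other BMPs, was at 4.02, 5.38 and 3.39 CPM in controls and 0.264, 0.195 and 0.287 CPM in mutants (log2 change -4.08 ± 0.46, adjusted p = 2.06e-05). The receptor gene Bmpr1b, needed for digit cartilage, was at 15.7, 18.1 and 16.04 CPM in controls and 8.97, 8.79 and 6.73 CPM in mutants (log2 change -1.03 ± 0.19, adjusted p = 0.00167), and the antagonist gene Chrdl1 fell by 1.54 ± 0.33 on the log2 scale (adjusted p = 0.00461). Of 27 TGF-beta and activin genes 2 rose and 2 fell (7.41% each way). This was near the share of all genes, 7.3% higher and 6.63% lower. Tgfb1 (0.79 ± 0.14) and the latent binding protein gene Ltbp2 (3.09 ± 0.56) rose, and Gdf11 (-0.63 ± 0.12) and Ltbp4 (-0.68 ± 0.14) fell (largest adjusted p = 0.00355). Wfikkn2, whose product binds Gdf11, was at 5.27, 11.8 and 10.6 CPM in controls and 0.550, 1.19 and 0.923 CPM in mutants (log2 change -3.37 ± 0.47, adjusted p = 0.000139).

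Among Wnt ligands some rose and some fell. Wnt6, made by limb ectoderm, was at 55.3, 68.99 and 49.8 CPM in controls and 103, 130.5 and 130.5 CPM in mutants (log2 change 1.06 ± 0.17, adjusted p = 0.000427) and Wnt4 rose (0.87 ± 0.18, adjusted p = 0.00424). The mesenchymal ligand gene Wnt11 was at 15.1, 21.5 and 19.1 CPM in controls and 4.24, 8.24 and 4.84 CPM in mutants (log2 change -1.68 ± 0.32, adjusted p = 0.00206), and Wnt16 fell by 3.07 ± 0.61 on the log2 scale (adjusted p = 0.00265). In the response and modulator list 7 of 30 genes rose and 6 fell, with 5 or 6 of each in every fit without 1 E10.5 library. The secreted inhibitor gene Wif1 was at 15.3, 26.2 and 21.6 CPM in controls and 4.64, 2.86 and 4.02 CPM in mutants (log2 change -2.45 ± 0.24, adjusted p = 3.92e-06), the agonist gene Rspo3 at 20.3, 20.3 and 18.7 CPM in controls and 6.31, 4.71 and 4.80 CPM in mutants (log2 change -1.91 ± 0.23, adjusted p = 3.95e-05), and the R-spondin receptor gene Lgr6 at 1.84, 2.26 and 2.23 CPM in controls and 5.76, 7.64 and 6.67 CPM in mutants (log2 change 1.66 ± 0.24, adjusted p = 0.000241). For retinoic acid, the uptake receptor gene Stra6 was at 79.5, 80.9 and 79.3 CPM in controls and 30.2, 31.01 and 19.6 CPM in mutants (log2 change -1.57 ± 0.16, adjusted p = 6.38e-06), and the nuclear receptor gene Rarg and the degrading enzyme gene Cyp26b1 fell by 0.72 ± 0.10 and 0.99 ± 0.22 on the log2 scale. Cyp26a1, another degrading enzyme gene, was at 27.9 CPM in mutant replicate 3 against 3.91 to 6.92 CPM in the other 5 libraries, and its call as higher was made in 2 of 6 fits. The Notch ligand gene Jag2, expressed in the ridge, was at 68.99, 82.97 and 65.9 CPM in controls and 151, 183 and 208 CPM in mutants (log2 change 1.31 ± 0.19, adjusted p = 0.000230).

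Several genes by which cells repel and guide one another fell. Of 21 ephrins and Eph receptors 9 fell (42.9%) and 3 rose, with 7 or 8 falls in each fit without 1 library. Rises numbered 0 without control replicate 1 or 2 or mutant replicate 3, and 1 without control replicate 3. Efnb3 was at 132, 135 and 146 CPM in controls and 61.8, 57.1 and 54.1 CPM in mutants (log2 change -1.25 ± 0.10, adjusted p = 2.97e-07) and its receptor gene Ephb3 at 132, 137 and 138 CPM in controls and 80.5, 83.3 and 84.3 CPM in mutants (log2 change -0.72 ± 0.09, adjusted p = 5.16e-05). Robo2, a Slit receptor gene, was at 65.2, 111 and 93.5 CPM in controls and 15.2, 16.3 and 13.8 CPM in mutants (log2 change -2.57 ± 0.37, adjusted p = 0.000208), and the netrin gene Ntn1 and its receptor gene Dcc fell by 1.58 ± 0.32 and 2.13 ± 0.44 on the log2 scale (adjusted p = 0.00310 and 0.00339). The chemokine gene Cxcl12, which guides muscle precursors and vessels, was at 100.4, 100.9 and 108 CPM in controls and 37.5, 32.1 and 14.7 CPM in mutants (log2 change -1.88 ± 0.34, adjusted p = 0.00131).

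**Figure D4:**
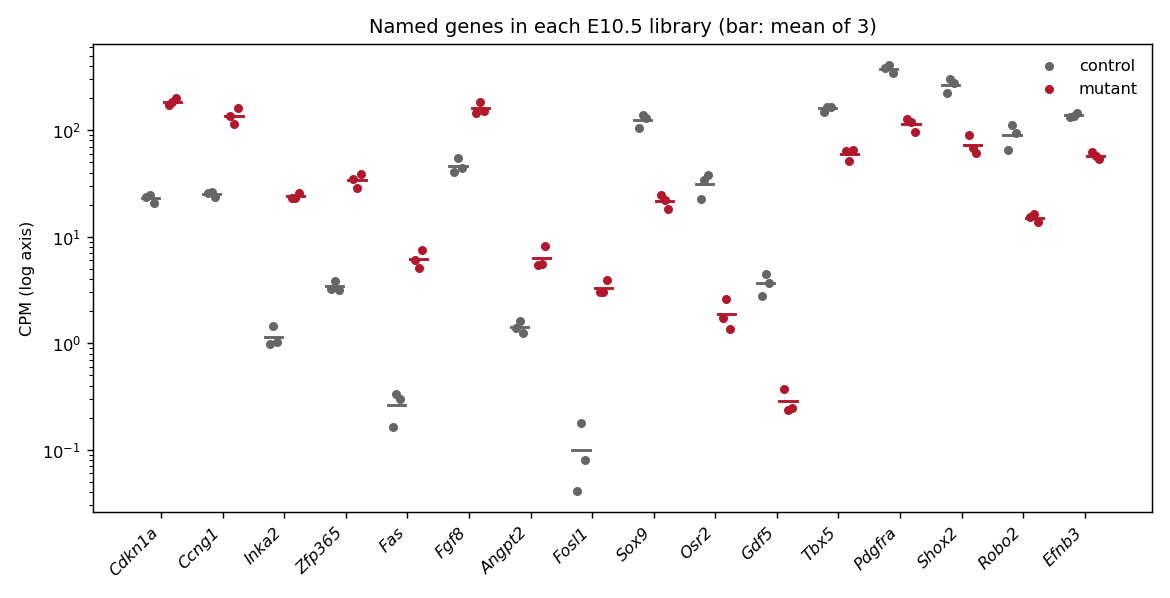
CPM (log axis) of 16 named genes in the 3 control (grey) and 3 mutant (red) E10.5 libraries, one point per library and a bar at each group's mean. Groups do not overlap for any of the 16, as for 2754 of all 2802 called genes. Cdkn1a goes from 20.9 to 24.9 CPM in controls to 171 to 199 CPM in mutants.

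Calls among vessel growth signals were mostly falls. In that list 6 of 21 genes fell (28.6%, where 6.63% of all genes did) and 1 rose (4.76%, where 7.3% did), in every fit without 1 library. The median log2 change was -0.05 and 9 of the 21 were positive, so the falls do not describe the typical member. Angpt2, an antagonist of the vessel receptor Tie2, was at 1.39, 1.62 and 1.26 CPM in controls and 5.36, 5.60 and 8.12 CPM in mutants (log2 change 2.16 ± 0.30, adjusted p = 0.000141). The endothelin receptor gene Ednra was at 104.9, 111 and 92.3 CPM in controls and 45.5, 41.1 and 29.98 CPM in mutants (log2 change -1.40 ± 0.17, adjusted p = 4.42e-05), the motility factor gene Hgf at 16.98, 14.7 and 14.6 CPM in controls and 5.30, 5.40 and 5.97 CPM in mutants (log2 change -1.47 ± 0.27, adjusted p = 0.00153), and Thbs2, a thrombospondin that restrains vessels, fell by 1.89 ± 0.39 on the log2 scale (adjusted p = 0.00368). Among 26 endothelial markers 7 rose and 3 fell. Only 2 or 3 rose without any 1 of control replicates 1, 2 and 3 or mutant replicates 1 and 2. Their summed level was 753 to 829 CPM in controls and 846 to 1000 CPM in mutants. Eng rose (1.07 ± 0.12), and Fli1 (-1.25 ± 0.17) and the tip cell gene Esm1 (-2.64 ± 0.46) fell (adjusted p = 2.29e-05, 0.000139 and 0.00108).

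Most markers of the ectoderm rose. Of 20 surface ectoderm markers 19 rose (95%, median 1.11), with 13 rises without mutant replicate 3, 13 to 17 in the 6 fits without 1 library, and 8 with the libraries of code 41 alone. Their summed level was 530 to 739 CPM in controls and 1050 to 1530 CPM in mutants. Of 15 ridge genes 11 rose (median 1.5), and 10 or 11 rose in each of the 6 fits. Fgf8 was at 40.02, 54.9 and 43.9 CPM in controls and 146, 184 and 152 CPM in mutants (log2 change 1.80 ± 0.34, adjusted p = 0.00207). The hyaluronan receptor gene Cd44, at 5.88, 5.76 and 5.12 CPM in controls and 15.3, 17.5 and 18.7 CPM in mutants, rose by 1.62 ± 0.16, and the ridge factor genes Sp6 and Sp8 by 1.62 ± 0.26 and 1.72 ± 0.27 (adjusted p = 6.35e-06, 0.000467 and 0.000510). Pdgfa, an ectodermal ligand, was at 81.4, 97.7 and 65.8 CPM in controls and 153, 187 and 192 CPM in mutants (log2 change 1.12 ± 0.16, adjusted p = 0.000154), against the fall of its receptor gene Pdgfra. Markers of immigrating muscle precursors did not move one way: of 19, 2 rose and 2 fell, with a median of -0.18 and 9 positive changes. Lbx1 rose (1.33 ± 0.26, adjusted p = 0.00273), while the other rise, Msc, and the falls of Tnnc2 and Myh3 were called in 1, 3 and 1 of 6 fits. The summed level of the ectoderm markers moved with the ridge genes, and its part in their rise was not tested.

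The calls of blood genes depended on mutant replicate 3. Of 17 erythroid markers 13 rose, with a summed level of 3150 to 6380 CPM in controls and 6610 to 20500 CPM in mutants. Without mutant replicate 3 edgeR called 0 of them, with 12 at an unadjusted p under 0.05. They numbered 2 without control replicate 1 and 3 without control replicate 3. On all libraries limma-voom called 13 and DESeq2 14. Of 24 macrophage markers 8 rose and 1 fell, and rises numbered 1, 4 and 2 without control replicates 1, 2 and 3 in turn, 2 without mutant replicate 2 and 5 without mutant replicate 3. C1qb was at 3.88, 4.43 and 3.13 CPM in controls and 8.49, 17.8 and 13.1 CPM in mutants (log2 change 1.78 ± 0.43, adjusted p = 0.0109), called in 4 of 6 fits. The engulfment receptor gene Mertk fell (-1.25 ± 0.19, adjusted p = 0.000293).

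Stress and growth programmes rose in part. Of 21 immediate early genes 7 rose, 6 or 7 in each fit without 1 library. Fosl1, an AP-1 subunit gene, was at 0.0410, 0.177 and 0.0797 CPM in controls and 3.06, 3.04 and 3.90 CPM in mutants (log2 change 5.05 ± 0.58, adjusted p = 2.25e-05). Myc was at 34.7, 38.6 and 31.1 CPM in controls and 70.04, 76.01 and 70.2 CPM in mutants (log2 change 1.05 ± 0.15, adjusted p = 0.000235), and Atf3, a stress factor gene, at 2.21, 1.64 and 1.77 CPM in controls and 5.12, 7.70 and 6.603 CPM in mutants (log2 change 1.79 ± 0.26, adjusted p = 0.000244). Of 24 genes of the integrated stress response 8 rose and 1 fell, with 5 rises without control replicate 1 or 2 or mutant replicate 2 or 3. The amino acid transporter gene Slc7a5 was at 66.4, 62.6 and 59.1 CPM in controls and 111, 117 and 108 CPM in mutants (log2 change 0.84 ± 0.14, adjusted p = 0.000981), and the one-carbon gene Mthfd2 (0.64 ± 0.12) and serine synthesis gene Psat1 (0.58 ± 0.11) rose (adjusted p = 0.00131 and 0.00157). Aldh1l2, another one-carbon gene, fell (-1.78 ± 0.34, adjusted p = 0.00224). Of 35 ribosome biogenesis genes 12 rose (median 0.34, 33 positive), but fewer without 1 library. They numbered 6, 4 and 7 without control replicates 1, 2 and 3 and 7, 8 and 6 without mutant replicates 1, 2 and 3. Nop2 was at 119, 107 and 120.4 CPM in controls and 182, 177 and 159 CPM in mutants (log2 change 0.58 ± 0.11, adjusted p = 0.00149). Ifitm3, of the interferon list (6 of 28 higher, 3 without control replicate 1 or mutant replicate 3), was at 13.02, 13.2 and 11.2 CPM in controls and 32.7, 31.5 and 42.9 CPM in mutants (log2 change 1.52 ± 0.19, adjusted p = 5.83e-05), and Psmb9, an immunoproteasome gene, rose by 2.52 ± 0.37 (adjusted p = 0.000216).

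Few or no genes passed in 3 metabolic and stress programmes. In the unfolded protein response and cholesterol synthesis lists edgeR, limma-voom and DESeq2 called 0 of 20 and 0 of 23 genes, with 2 higher and 6 lower at an unadjusted p under 0.05 in edgeR. Of 31 hypoxia and glycolysis genes 1 rose and 1 fell (3.23% each way, where 7.3% and 6.63% of all genes did). The rise was that of Hk2, called in none of the 6 fits, and the fall that of Pfkm (-0.48 ± 0.08, adjusted p = 0.00102). Other programmes held more calls. Of 24 imprinted growth genes 6 fell (25%, where 6.63% of all genes did), with 3 falls without control replicate 1 or 2 and 2 without control replicate 3 or mutant replicate 3. Rtl1, a placental growth gene, was at 3.69, 4.08 and 3.13 CPM in controls and 1.08, 0.868 and 0.615 CPM in mutants (log2 change -2.09 ± 0.35, adjusted p = 0.000724). Of 20 oxidative stress genes 3 rose and 3 fell (15% each way), with 1 to 3 rises and 2 or 3 falls in each fit without 1 library. Among them Hmox1 rose (0.80 ± 0.12) and Nqo1 (-1.42 ± 0.22) and Gsta4 (-1.07 ± 0.19) fell (adjusted p = 0.000291, 0.000430 and 0.00121). Of 12 mitochondrially encoded genes 5 rose (41.7%, median 0.66) and all 12 had a positive change, with 1 rise without control replicate 1 or 2 or mutant replicate 1 or 2, and 2 without mutant replicate 3. These transcripts took 0.987% to 1.08% of counts in mutants and 0.531% to 0.758% in controls, and their part in the gene results was not tested.

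The E10.5 effect was then compared with those at the other stages by interaction contrasts. At E9.5, 36 genes rose (0.179%) and 1 fell. Of the 36 rises 34 (94.4%, where 7.3% of all genes did) also rose at E10.5, where they made up 2.31% of the rises. Control E9.5 replicate 1 had 22294 genes detected and a TMM factor of 0.84. Control E9.5 replicates 2 and 3 had 24711 and 24295 genes and factors of 0.971 and 0.96. The part of that library in the low number of E9.5 calls was not tested. At E11.5, 1613 rose (8.02%) and 1916 fell (9.52%). Of these, 781 rises were shared (53.2% of those at E10.5, 48.4% of those at E11.5), and so were 854 falls (64.1% and 44.6%). Called genes that rose at one of these stages and fell at the other numbered 4 for E10.5 rises and 0 for E10.5 falls. Of the 1333 genes that fell at E10.5, 734 had a negative log2 change at E9.5 (median -0.02), against 1303 at E11.5 (median -0.615 over all 1333).

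The effect was more positive at E10.5 than at E9.5 for 186 genes (0.925%) and more negative for 260 (1.29%). These counts depended on single libraries: over the 18 fits without 1 library they ran from 38 (without mutant E10.5 replicate 3) to 1362 (without control E9.5 replicate 2) and from 86 to 1148, at the same libraries. They were 53 and 136, 63 and 101, and 62 and 126 without control E10.5 replicates 1, 2 and 3, and 67 and 116 without mutant E10.5 replicate 2. They were 52 and 125 without mutant E9.5 replicate 2 and 55 and 112 without mutant E9.5 replicate 3. Positive differences numbered 106 without mutant E9.5 replicate 1, and negative ones 438 without control E9.5 replicate 1. With the replicate number as a block, for which every same-numbered E9.5 pair deviated together, 212 differences were positive and 403 negative. Pmaip1 stood out among the negative differences: its log2 change was 2.53 ± 0.25 at E9.5, -0.45 ± 0.22 at E10.5 and 0.27 ± 0.22 at E11.5 (difference between E10.5 and E9.5 -2.99 ± 0.33, adjusted p = 0.000372). In controls the gene itself rose from E9.5 to E11.5 by 4.92 on the log2 scale. Sox9 (-2.46 ± 0.26, adjusted p = 0.000303), Tbx18 (-2.51 ± 0.29, adjusted p = 0.000390), the calcium channel gene Cacna1g (-1.87 ± 0.19, adjusted p = 0.000303), Sox5 (-1.68 ± 0.20, adjusted p = 0.000456), the dynamin gene Dnm1 (-1.30 ± 0.15, adjusted p = 0.000390), Runx1t1 (-2.09 ± 0.24, adjusted p = 0.000406) and the matrix gene Egflam (-1.60 ± 0.20, adjusted p = 0.000723) had changes between -0.16 and 0.08 at E9.5.

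On the positive side Atg9b changed by -0.39 ± 0.31 at E9.5 and 3.82 ± 0.34 at E10.5 (difference 4.22 ± 0.45, adjusted p = 0.000303). The tubulin gene Tubb6 (1.53 ± 0.19, adjusted p = 0.000723), Baiap2 (0.89 ± 0.12, adjusted p = 0.000858), Cgref1 (3.12 ± 0.46, adjusted p = 0.00200) and Ass1, of arginine synthesis (1.89 ± 0.29, adjusted p = 0.00263), followed, as did Btbd19 (1.73 ± 0.23, adjusted p = 0.000858), Pmm1 (2.12 ± 0.29, adjusted p = 0.00106) and Man2b1 (0.96 ± 0.14, adjusted p = 0.00194). Compared with E11.5, 14 genes had a more positive effect at E10.5 (0.0696%) and 1 a more negative effect (0.00497%), where DESeq2 had 165 and 30. The first count was 0 without any 1 of control E10.5 replicates 1 and 3, the third E10.5 mutant and control E11.5 replicate 2. It was 44 without the first control of E9.5 or of E11.5, 15 and 11 without control E9.5 replicate 3 and mutant E9.5 replicate 1, and 2 to 9 without any 1 of the other libraries. The second was 0 in 13 of the 18 fits, and 17 and 20 without control E9.5 replicate 1 and control E11.5 replicate 1. The cartilage collagen genes Col2a1 (1.84 ± 0.31, adjusted p = 0.0401), Col9a3 (2.60 ± 0.42, adjusted p = 0.0303) and Col11a2 (2.48 ± 0.38, adjusted p = 0.0200) were among the 14: they changed by -2.46 ± 0.23, -3.96 ± 0.32 and -2.34 ± 0.27 at E11.5, and by -0.62 ± 0.22, -1.36 ± 0.30 and 0.14 ± 0.27 at E10.5. Matn1 (6.22 ± 1.02, adjusted p = 0.0337), Wwp2 (0.95 ± 0.16, adjusted p = 0.0473), Inka2 (2.08 ± 0.28, adjusted p = 0.0161), the potassium channel gene Kcnj2 (1.92 ± 0.28, adjusted p = 0.0200) and the water channel gene Aqp1 (2.08 ± 0.35, adjusted p = 0.0401) were others. The single more negative effect was that of Stra6 (-1.22 ± 0.22, adjusted p = 0.0473).

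**Figure D5:**
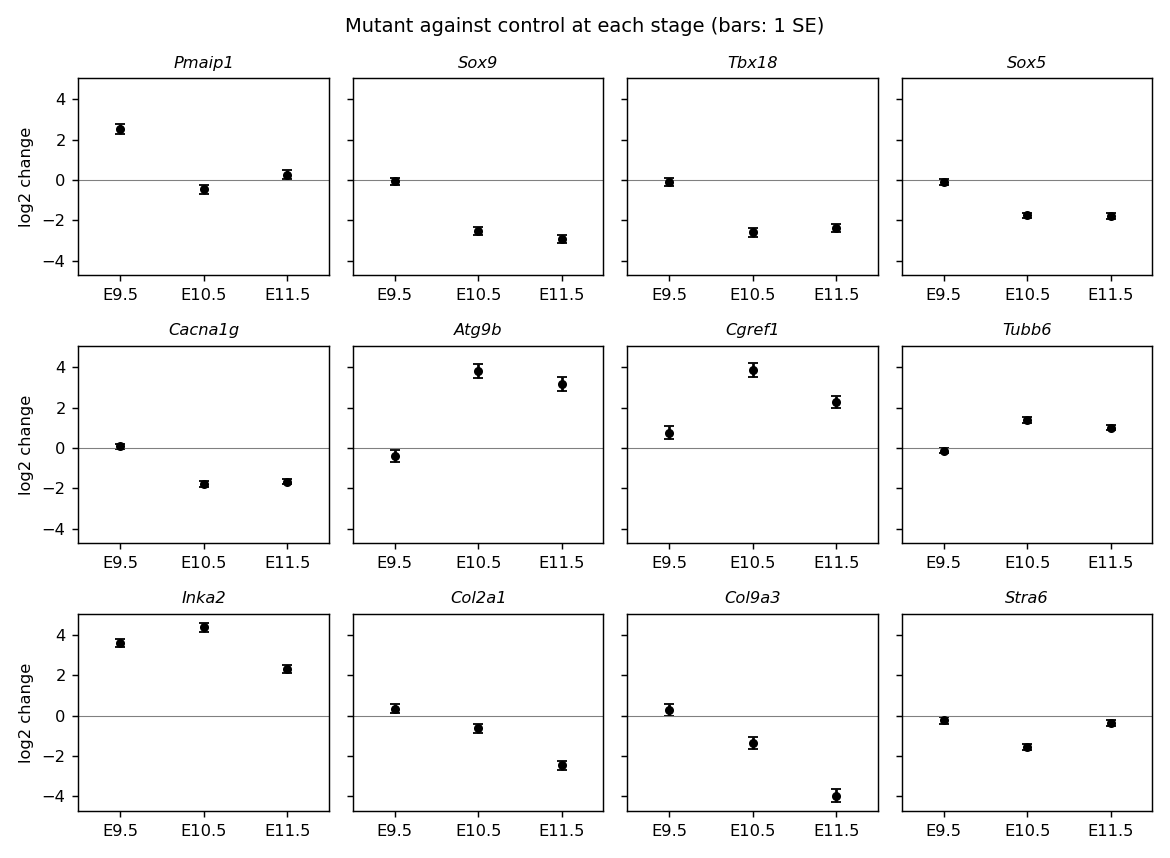
Log2 change of mutants against controls at the 3 stages for 12 genes whose E10.5 effect differed from that at another stage, with bars of ± 1 SE, n = 3 against 3 at each stage. Pmaip1 goes from 2.53 at E9.5 to -0.45 at E10.5, and Sox9 from -0.07 to -2.52.

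Genes that change in normal buds between E9.5 and E11.5 were then counted among the E10.5 calls. In controls 3008 genes rose at least 2-fold between these stages (15%) and 1538 fell at least 2-fold (7.64%). Of the 3008, 552 (18.4%) were lower in E10.5 mutants, where 6.63% of all genes were, and they made up 41.4% of the falls; 210 (6.98%) were higher. Of the 1538, 284 (18.5%) were higher in E10.5 mutants, where 7.3% of all genes were, which is 19.3% of the rises, and 23 (1.5%) were lower. The 552 became 361 without mutant E10.5 replicate 3; the 284 became 165, 164 and 174 without control E10.5 replicates 1, 2 and 3, and 163 without the third mutant. No test of this overlap was made. Mfap4, a microfibril gene that rose with normal development, was at 128, 149 and 166 CPM in controls and 43.1, 45.3 and 39.7 CPM in mutants (log2 change -1.79 ± 0.13, adjusted p = 2.97e-07) at E10.5. Runx1t1, which also rose with normal development, was at 32.5, 34.7 and 29.02 CPM in controls and 7.83, 6.57 and 5.82 CPM in mutants (log2 change -2.25 ± 0.18, adjusted p = 4.13e-07). Klhdc7a, which fell with normal development, was at 1.27, 1.06 and 0.937 CPM in controls and 11.7, 10.1 and 12.4 CPM in mutants (log2 change 3.38 ± 0.41, adjusted p = 4.11e-05) at E10.5, the non-coding RNA Pvt1 at 2.17, 1.88 and 2.27 CPM in controls and 9.04, 8.48 and 10.1 CPM in mutants (log2 change 2.13 ± 0.21, adjusted p = 3.92e-06), and the gap junction gene Gjb5 at 1.52, 1.53 and 1.26 CPM in controls and 5.36, 6.27 and 6.73 CPM in mutants (log2 change 2.09 ± 0.25, adjusted p = 3.18e-05).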

How the data were processed

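RNA from individual limb buds was sequenced as stranded paired-end libraries. Per the file headers, the authors counted read pairs over the exons of each gene with featureCounts 1.6.4 (reverse-stranded setting, GENCODE M22, mm10), and the deposited values are raw counts. Per the submitters' processing notes, cutadapt and STAR were also used. The authors' deposited table of log2 FPKM, with scaling and pseudocount not given in the sources used here, served as an alternative.

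Counts of the 18 libraries, 6 groups of 3, were scaled by TMM and filtered (filterByExpr, 20118 genes), and fitted with edgeR 4.0.16 (robust quasi-likelihood) in R 4.3.3, with Benjamini-Hochberg adjustment over all genes and a threshold of 0.05. Symbols came from GENCODE M21. On simulated counts 65% of 2-fold and 90% of 4-fold changes at E10.5 were recovered, with 8 false calls among 19637 genes. There 100 genes were changed at each fold, none of them low in counts. No stage difference and no library that stood apart were simulated. Far more genes were called in the data, so these shares describe the simulated setting only. DESeq2 1.42.0, limma 3.58.1 (voom), other scalings and filters, a length correction, a replicate block and left-out libraries were alternatives.

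Genes were named as those with the smallest adjusted p in each list, the largest changes with separate groups, and those leading each stage difference and overlap; Matn4, Xpc, Pitx1 and the genes of mutant replicate 3 were named after their values were seen. The comparison and the lists were chosen with earlier results of these data known. Single members of 2 lists are counted in their lists but not reported here by name.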

Additional observations from a re-analysis of the deposited data

Results flagged for a closer look

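These genes had a mutant effect at E10.5 that differed from that at another stage by edgeR's test of the difference (adjusted p under 0.05, 3 against 3 libraries at each stage), and the control libraries of the stages are separate. Values are the log2 change at E10.5 minus that at the other stage. Against E9.5 the difference was positive for Atg9b (4.22), Cgref1 (3.12), Pmm1 (2.12), Ass1 (1.89), Btbd19 (1.73), Tubb6 (1.53), Man2b1 (0.96) and Baiap2 (0.89). It was negative for Pmaip1 (-2.99), Tbx18 (-2.51), Sox9 (-2.46), Runx1t1 (-2.09), Cacna1g (-1.87), Sox5 (-1.68), Egflam (-1.60) and Dnm1 (-1.30). Of these genes Pmaip1 alone was called higher at E9.5 among the negative differences.

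Against E11.5 the difference was positive for Matn1 (6.22), Col9a3 (2.60), Col11a2 (2.48), Inka2 (2.08), Aqp1 (2.08), Kcnj2 (1.92), Col2a1 (1.84) and Wwp2 (0.95), and negative for Stra6 (-1.22). Matn1 was near 0 in E10.5 controls, so its fitted value has a wide error. These calls were less stable. Over the 18 fits without 1 library they were made again in 14 for Inka2, 11 for Kcnj2, 9 for Col9a3 and for Col11a2, 6 for Matn1, Aqp1 and Col2a1, 4 for Wwp2 and 2 for Stra6, whereas each difference against E9.5 named above was called in all 18.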

How the results depend on the processing

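The E10.5 counts, 1469 higher and 1333 lower, became 433 and 443 with only the libraries whose codes begin with 41, and 3114 and 3223 in a fit of the 6 E10.5 libraries alone; they ran from 747 to 2596 and from 726 to 2737 over the fits without 1 library. Effects more positive or more negative at E10.5 than at E9.5 (186 and 260) numbered 676 and 741 with DESeq2, and 288 were more positive with the stricter filter; without 1 library they ran from 38 to 1362 and from 86 to 1148. Against E11.5 (14 and 1) they numbered 165 and 30 with DESeq2, 7 and 0 with limma-voom and 7 and 3 with no filter. The more negative effects numbered 3 with the length trend removed, 2 with the stricter filter and 4 without control E9.5 replicate 1 and mutant E10.5 replicate 3; without 1 library the counts ran from 0 to 44 and from 0 to 20. The overlaps with control development, 552 and 284 genes, ran from 361 to 651 and from 163 to 360 without 1 library. The cause of these shifts was not tested.

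Deviations of same-numbered libraries from their group means correlated at 0.227, 0.0495 and -0.00768 at E10.5 and at -0.29, 0.202 and -0.169 at E11.5, where the numbers do not pair the libraries. At E9.5 each pair was above 0.1 (0.333, 0.232 and 0.119), though the third control correlated more with the second mutant (0.247); the labels name no shared litter or day. With the replicate block 1328 genes were higher and 1316 lower, 403 effects were more negative than at E9.5, and against E11.5 the counts were 8 and 0.

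Some genes of mutant replicate 3 changed sign without it. Aqp8 ran from -0.02 (without mutant E10.5 replicate 3) to 7.07 over the fits without 1 library, and Prap1 from -4.59 to 10.85. Without control E9.5 replicate 1 as well they were at -0.03 and -4.60. With only the libraries of code 41, Prap1 was at -5.14, C3 at -0.48 and Esr1 at -0.40. The fits that leave out an E9.5 or E11.5 library were added after seeing the data. Counting error is small at this depth except for genes near 0 CPM.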

Other observations

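Some stress and secreted factor genes were higher in E10.5 mutants beside the groups described above. Of 18 heat shock genes 6 rose (33.3%, median 0.15) and 1 fell, with 4 or 5 rises in each fit without 1 E10.5 library and 1 with the libraries of code 41 alone. Hspb8, a small heat shock protein gene, was at 14.4, 17.4 and 15.2 CPM in controls and 24.6, 32.00 and 32.5 CPM in mutants (log2 change 0.92 ± 0.15, adjusted p = 0.000770), and Hspe1, which encodes the mitochondrial co-chaperonin, at 184, 184 and 172 CPM in controls and 296, 284 and 303 CPM in mutants (log2 change 0.71 ± 0.17, adjusted p = 0.0112). Hspa1a was at 0.718, 0.687 and 0.717 CPM in controls and 3.71, 4.58 and 7.63 CPM in mutants (log2 change 2.90 ± 0.67, adjusted p = 0.00766), but its near-identical neighbour Hspa1b makes the assignment of its reads uncertain. Of 12 tested genes for factors that senescent cells are known to secrete, 7 rose (58.3%) and 0 fell, with 5 to 7 rises in those fits and 1 with the libraries of code 41 alone. Gdf15 and Lif, 2 of the 7, are also p53 targets described above. The adhesion molecule gene Icam1 was at 7.97, 8.22 and 8.41 CPM in controls and 11.3, 15.5 and 15.6 CPM in mutants (log2 change 0.79 ± 0.15, adjusted p = 0.00239). Serpine2, a protease inhibitor gene, was at 97.8, 95.9 and 84.8 CPM in controls and 123, 113 and 128 CPM in mutants (log2 change 0.39 ± 0.08, adjusted p = 0.00386).

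Markers of vessel wall and nerve cells moved in both directions. Of 12 pericyte and smooth muscle markers 1 rose (8.33%, where 7.3% of all genes did) and 3 fell (25%, where 6.63% did), with 2 or 3 falls in each fit without 1 library. The list's summed level was 555 to 567 CPM in controls and 351 to 378 CPM in mutants. The median log2 change was 0.46 and 7 of the 12 were positive, so the lower sum does not describe the typical member. Pdgfrb, a receptor gene of pericytes and of mesenchyme, fell (log2 change -0.89 ± 0.13, adjusted p = 0.000177), while Rgs5, a pericyte gene, rose (log2 change 1.30 ± 0.27, adjusted p = 0.00380). Of 15 Schwann cell and neuron markers 3 rose (20%) and 1 fell (6.67%), where 7.3% and 6.63% of all genes did. Tubb3, a neuronal tubulin gene, was at 11.3, 12.1 and 10.54 CPM in controls and 21.02, 20.5 and 18.7 CPM in mutants (log2 change 0.83 ± 0.15, adjusted p = 0.00149), and Dcx, a gene of migrating neurons, at 41.7, 46.4 and 50.4 CPM in controls and 20.5, 12.2 and 11.8 CPM in mutants (log2 change -1.64 ± 0.25, adjusted p = 0.000385). Without 1 library 1 to 3 of these markers rose and 1 fell.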
